A study of Mus musculus with 16 samples.

Results

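The NRF2 antioxidant programme was followed here in 10 genes, taken by name from the 22612 genes of the count tables: 8 target genes of the transcription factor NRF2 (Nqo1, Hmox1, Gclc, Gclm, Txnrd1, Srxn1, Slc7a11 and Gsr), the factor itself (Nfe2l2) and its inhibitor Keap1. For each gene, 1 transcript was kept, the one with the most ribosome footprints. The genes were chosen by name because oxidation of acetylated polyamines releases hydrogen peroxide, with earlier results of these data known. The choice of transcript used measured values, the footprint counts.

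The cells came from C57BL/6J mice and were grown for 2 weeks as 3D-3C organoids, an epidermal culture that holds hair follicle stem cells (HFSCs, sorted as α6 integrin+ CD34+) together with their progeny (progenitors, sorted as α6 integrin+ CD34-). Organoids were left untreated or received N1-acetylspermidine (N1-AcSpd), the acetylated form of the polyamine spermidine, for 72 h. The 4 groups were therefore untreated progenitors, untreated HFSCs, N1-AcSpd progenitors and N1-AcSpd HFSCs, none with a genetic change named in the labels, and each came from the same 2 donor mice. RNA-seq counted messages and Ribo-seq counted ribosome-protected fragments (footprints) in the same lysates, which gave 16 libraries, 8 per assay and 2 per group. A sorted fraction of a culture is the model, so that fewer cells of a state and less RNA per cell cannot be told apart.

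NRF2 is the master regulator of the antioxidant response. KEAP1 binds it in the cytoplasm and hands it to a CUL3 ubiquitin ligase, so that it is degraded as fast as it is made. When peroxides or electrophiles modify cysteines of KEAP1, NRF2 escapes, enters the nucleus with a small MAF partner and binds antioxidant response elements in its target genes, which make glutathione, recycle thioredoxin and detoxify quinones and haem. In skin this pathway protects keratinocytes from reactive oxygen and foreign chemicals.

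The core of the antioxidant response element was looked up in the RefSeq promoters of GRCm38.p6, windows of 300 bases that run from 250 bases before to 50 bases after a start site. The letters searched were TGACNNNGC, on both strands. Of the 10 genes, 7 were in the promoter table with 9 promoters; Hmox1, Gclc and Gsr were not. The core stood in a promoter of 4 of the 7 genes, against 14% of the 27025 genes of the table and 12.4% of its 32851 promoters. The 4 matches are shown with their flanks because the results below turn on whether these genes moved together, with the core in capitals and on the strand where it reads in this direction.
Gclm, chr3:122245413-122245441, minus strand: tcgtgagagtTGACGGTGCgcccgggagc
Txnrd1, chr10:82859104-82859132, minus strand: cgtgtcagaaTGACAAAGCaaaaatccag
Srxn1, chr2:152105542-152105570, minus strand: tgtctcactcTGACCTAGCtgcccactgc
Nfe2l2, chr2:75704885-75704913, minus strand: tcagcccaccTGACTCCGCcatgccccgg
Counted from the RefSeq start site, the centre of the core lay at -130 in Gclm, at -236 in Nfe2l2 and at 32 in Srxn1. In Txnrd1 it lay at -88 from the second of 3 annotated starts, and the transcript kept here may begin at another. The looser form TGANNNNGC was found in 6 of the 7 genes but also in 45% of all genes. These are matches of letters, and binding was not measured.

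The RNA-seq libraries held between 21612795 and 31524062 counts on the transcripts kept, and the Ribo-seq libraries between 34475 and 268052 footprints. The 10 genes took 0.0656% to 0.0883% of the RNA-seq counts and 0.104% to 0.155% of the footprints. A gene with no footprint in a library may still have had up to 3, equal to 12.2 to 76.1 CPM (counts scaled by the TMM-adjusted library size) depending on the library, for counting error only. Keratinocyte markers (Krt5, Krt14, Itga6, Itgb4 and Trp63) summed to between 36488 and 43497 RNA-seq CPM in every library. The 5 HFSC markers (Cd34, Krt15, Sox9, Lhx2 and Nfatc1) summed to 1077 to 1247 CPM in untreated HFSCs against 382 to 424 in untreated progenitors. With N1-AcSpd they summed to 628 to 771 against 259 to 284 CPM. Cd34 was used for the sort, so its part of the difference was set by the sort. The highest level in a library was 763 CPM for Krt15, 284 for Sox9, 91.2 for Nfatc1, 89.9 for Cd34 and 21.9 for Lhx2. Melanocyte, endothelial and leukocyte lists stayed at or below 3.18 CPM and the fibroblast list at or below 13.4 CPM, and Lum, Cdh5, Emcn, Cd207 and Tyrobp had no count. The difference between the mice ran the same way in 3 RNA-seq groups (correlation across 12256 genes 0.35 to 0.65) and the opposite way in N1-AcSpd HFSCs (-0.61 to -0.39), so the mouse numbers of that group may be exchanged. In Ribo-seq the correlations were weak for every pair of groups (0.01 to 0.10 across 2261 genes), and N1-AcSpd HFSCs did not run the opposite way. The mouse numbers are used as labelled below, and the main tests do not use them.

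In both assays all 10 genes had on average 1 count or more per library and were tested. Per kilobase of transcript, Nfe2l2 was the most abundant message with a mean of 107 RNA-seq CPM per kilobase over the 8 libraries. Hmox1 (33.8), Nqo1 (32.4), Keap1 (25.7) and Gclc (24.9) followed, then Txnrd1 (17.4), Gsr (17.2) and Gclm (12.8). Srxn1 (3.22) and Slc7a11 (2.72) were the lowest. Over the libraries Hmox1 varied by a coefficient of variation of 34.3% and Nqo1 of 32.0%, so that the order of this pair, like that of Keap1 and Gclc and of Txnrd1 and Gsr, was within the spread between libraries. The regulators varied least, with coefficients of 10.7% for Nfe2l2 and 8.76% for Keap1, against 18.0% for Txnrd1 and 40.4% for Slc7a11. The levels of all 10 genes are plotted by library.

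**Figure D1:**
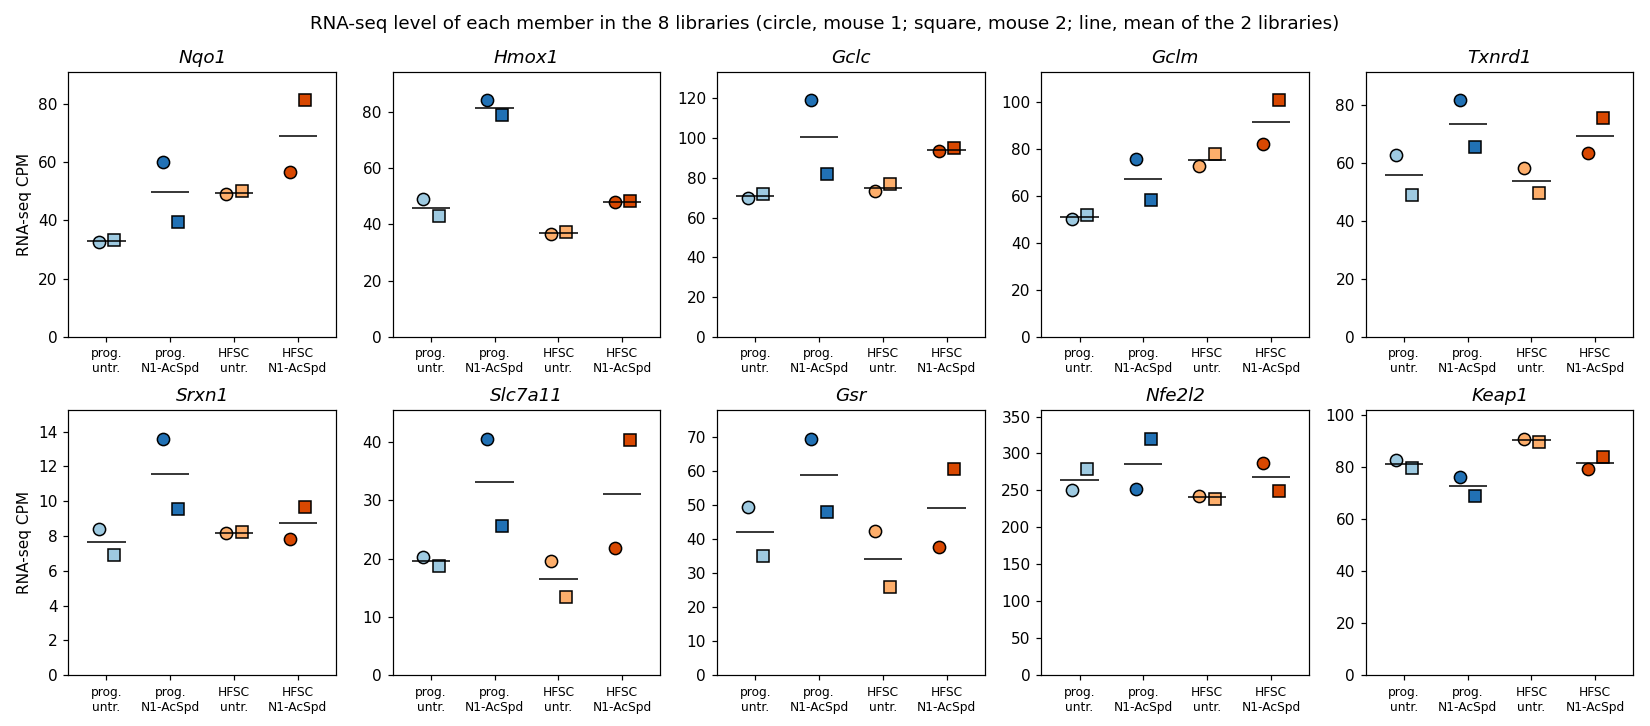
RNA-seq level of the 10 genes in each library, in TMM-scaled CPM on linear axes from 0. Circles are mouse 1, squares mouse 2 and lines the mean of the 2 libraries of a group. In each of the 8 targets both N1-AcSpd means lie above their untreated means, whereas Keap1 lies below in both cell types.

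N1-AcSpd was compared with no treatment within each cell type, which asks whether the acetylated polyamine moved the antioxidant programme. All 8 targets had higher fitted RNA-seq levels with N1-AcSpd in progenitors and all 8 in HFSCs, as did 47.2% and 47.8% of all genes. In progenitors the differences ran from 0.39 to 0.83 on the log2 scale with a median of 0.55, against a median of -0.01 over all 14224 genes tested. In HFSCs they ran from 0.10 to 0.92 with a median of 0.37, against -0.01. One target, Hmox1 in progenitors, passed the test across all genes (called: a Benjamini-Hochberg adjusted p under 0.05 in the quasi-likelihood test of edgeR).

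Hmox1 encodes haem oxygenase 1, which breaks haem down to biliverdin, iron and carbon monoxide (chr8:75093621-75100589, plus strand, 5 exons, GRCm38). Its RNA-seq level in untreated progenitors was 48.8 CPM in mouse 1 and 43.0 CPM in mouse 2, and with N1-AcSpd it was 84.1 and 78.8 CPM. In HFSCs it was 36.6 and 37.2 CPM untreated and 47.9 and 48.2 CPM with N1-AcSpd. Both treated libraries lay above both untreated ones in each cell type, and the treated progenitors stood highest of all. In progenitors Hmox1 rose 1.77-fold (log2 0.83, SE 0.10, edgeR adjusted p = 0.0343), 1 of the 31 genes called higher there, which is 0.218% of the genes tested (0.239% in both directions). With the mouse as a block the adjusted p was 0.0609, within a range from 1.01e-06 to 0.0816 over 8 other settings. Leaving out single libraries gave log2 differences from 0.75 to 0.92 with adjusted p from 0.0406 to 0.282, and the call was lost without 7 of the 8 libraries: without either untreated or either treated progenitor library, without either treated HFSC library and without untreated HFSCs of mouse 2, where the adjusted p was 0.0512. In HFSCs the difference was 1.30-fold (log2 0.38, SE 0.10, unadjusted p = 0.00552, edgeR adjusted p = 0.374). Averaged over the cell types Hmox1 rose by a log2 difference of 0.61 (SE 0.07, adjusted p = 0.00978), and it was the only 1 of the 10 genes among the 170 called higher in that comparison (1.2% of genes tested, 1.64% in both directions). That call held without each of the 8 libraries in turn, with adjusted p from 0.0219 to 0.0466.

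Slc7a11, the cystine carrier that feeds glutathione synthesis (chr3:49892526-50443614, minus strand, 12 exons), had the widest spread. It measured 20.3 and 18.8 RNA-seq CPM in untreated progenitors of mouse 1 and mouse 2 and 40.6 and 25.5 CPM with N1-AcSpd. In HFSCs it measured 19.5 and 13.4 CPM untreated and 21.8 and 40.4 CPM with N1-AcSpd. The groups did not overlap in either cell type, although the treated values of the mice lay far apart and in opposite order. The fitted log2 difference was 0.76 (SE 0.32, unadjusted p = 0.0414) in progenitors and 0.92 (SE 0.32, unadjusted p = 0.0184) in HFSCs, and neither passed adjustment (0.538 and 0.532). With single libraries left out it ranged from 0.39 to 1.07 in progenitors and from 0.41 to 1.27 in HFSCs, lowest without treated progenitors of mouse 1 and treated HFSCs of mouse 2. Of its 28-base words, 4.32% also occur in transcripts of other genes, and an antisense gene (Gm37854) overlaps it. Pseudogenes overlap it on both strands, with Gm37692 on the same strand.

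Gclc and Gclm encode the catalytic and the modifier subunit of glutamate-cysteine ligase, the rate-limiting step of glutathione synthesis. Gclc (chr9:77754535-77794485, plus strand, 16 exons) measured 70.1 and 71.6 RNA-seq CPM in untreated progenitors and 119 and 82.0 CPM with N1-AcSpd. In HFSCs Gclc measured 73.3 and 76.8 CPM untreated and 93.4 and 95.0 CPM with N1-AcSpd. All 4 treated libraries exceeded all 4 untreated ones. The log2 difference of Gclc was 0.50 in progenitors (SE 0.16, unadjusted p = 0.0114, adjusted p = 0.364) and 0.33 in HFSCs (SE 0.16, unadjusted p = 0.0682).
Gclm (chr3:122245557-122270732, plus strand, 7 exons) measured 50.3 and 51.8 RNA-seq CPM in untreated and 76.0 and 58.5 CPM in N1-AcSpd progenitors. In HFSCs it measured 73.0 and 77.9 CPM untreated and 82.2 and 101 CPM with N1-AcSpd. The treated libraries lay above the untreated ones within each cell type, while untreated HFSCs already reached the level of the higher treated progenitor library. The log2 difference of Gclm was 0.40 in progenitors (SE 0.15, unadjusted p = 0.0261) and 0.28 in HFSCs (SE 0.15, unadjusted p = 0.0913), neither called. Genes on the opposite strand overlap both Gclm (Gm17494) and Txnrd1 (Gm38560 and Gm47073). On the same strand, the pseudogene Gm6061 overlaps Gclm and the protein-coding gene Eid3 overlaps Txnrd1.

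Nqo1 encodes the quinone reductase NQO1 (chr8:107388225-107403206, minus strand, 6 exons). It measured 32.6 and 33.3 RNA-seq CPM in untreated progenitors and 60.03 and 39.4 CPM with N1-AcSpd. In HFSCs it measured 49.0 and 50.1 CPM untreated and 56.5 and 81.2 CPM with N1-AcSpd. The untreated mice were nearly equal and the treated ones were not: mouse 1 was higher in progenitors and mouse 2 in HFSCs. The log2 difference was 0.59 in progenitors (SE 0.22, unadjusted p = 0.0233, adjusted p = 0.451) and 0.48 in HFSCs (SE 0.21, unadjusted p = 0.0522).

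Txnrd1 encodes the cytosolic thioredoxin reductase and Gsr the glutathione reductase, both of which spend NADPH to restore reduced thiols. Txnrd1 (chr10:82833951-82897712, plus strand, 15 exons) measured 62.7 and 49.0 RNA-seq CPM in untreated and 81.5 and 65.3 CPM in treated progenitors, and 58.1 and 49.5 CPM in untreated and 63.2 and 75.5 CPM in treated HFSCs. Its groups did not overlap in either cell type. The log2 difference was 0.39 in progenitors (SE 0.17, unadjusted p = 0.0450) and 0.37 in HFSCs (SE 0.17, unadjusted p = 0.0583).
Gsr (chr8:33652523-33698163, plus strand, 13 exons) measured 49.3 and 34.9 RNA-seq CPM in untreated and 69.5 and 47.9 CPM in treated progenitors, and 42.3 and 26.0 CPM in untreated and 37.5 and 60.7 CPM in treated HFSCs. Its groups overlapped in both cell types. The treated HFSCs of mouse 1 (37.5 CPM) lay below the untreated HFSCs of mouse 1 (42.3 CPM) and above those of mouse 2 (26.0 CPM). The log2 difference of Gsr was 0.48 in progenitors (SE 0.31, unadjusted p = 0.155) and 0.52 in HFSCs (SE 0.31, unadjusted p = 0.125).

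Srxn1 encodes sulfiredoxin, which reactivates peroxiredoxins that peroxide has over-oxidised (chr2:152105516-152111376, plus strand, 2 exons). It measured 8.42 and 6.93 RNA-seq CPM in untreated and 13.6 and 9.55 CPM in N1-AcSpd progenitors, and 8.18 and 8.21 CPM in untreated and 7.83 and 9.69 CPM in N1-AcSpd HFSCs. It was separated in progenitors and overlapped in HFSCs. The log2 difference was 0.59 in progenitors (SE 0.22, unadjusted p = 0.0240) and 0.10 in HFSCs (SE 0.22, unadjusted p = 0.660).

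The regulators came next. Nfe2l2 (chr2:75675513-75704641, minus strand, 5 exons) measured 250 and 278 RNA-seq CPM in untreated and 252 and 320 CPM in treated progenitors, and 242 and 239 CPM in untreated and 288 and 250 CPM in treated HFSCs. The log2 difference was 0.11 in progenitors (SE 0.14, unadjusted p = 0.420) and 0.16 in HFSCs (SE 0.14, unadjusted p = 0.274), where the treated libraries lay above the untreated ones.
Keap1 (chr9:21229730-21239361, minus strand, 6 exons) measured 82.6 and 79.7 RNA-seq CPM in untreated and 76.3 and 68.9 CPM in treated progenitors, and 91.0 and 89.5 CPM in untreated and 79.1 and 83.9 CPM in treated HFSCs. Both treated libraries lay below both untreated ones in each cell type, as did 20.7% of all genes in progenitors and 17.2% in HFSCs. The log2 difference of Keap1 was -0.16 in progenitors (SE 0.10, unadjusted p = 0.139) and -0.15 in HFSCs (SE 0.10, unadjusted p = 0.171). An antisense gene, Gm16754, shares 13.9% of the 28-base words of the Keap1 transcript, and whether counting used strand is not given in the sources used here, so part of these counts may belong to it.

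Counted over the 10 genes, 7 were higher in both treated than in both untreated progenitor libraries, against 18.1% of all genes tested, and 7 in HFSCs, against 16.7%. In both cell types at once 6 genes were separated upward (Nqo1, Hmox1, Gclc, Gclm, Txnrd1 and Slc7a11), against 8.65% of all genes. Of the 4 genes whose promoters hold the core shown above, Gclm and Txnrd1 were separated in both cell types, Srxn1 in progenitors and Nfe2l2 in HFSCs. Nqo1 and Slc7a11, separated in both, had no match of the core within the 300-base windows. Sequence outside these windows was not searched. At an unadjusted p below 0.05, 7 of the 8 targets were higher in progenitors (background 4.48%) and 2 in HFSCs, Hmox1 and Slc7a11 (background 4.3%). Averaged over both cell types 7 of 8 were higher at that level (background 7.63%), all but Srxn1. No gene at all passed adjustment for N1-AcSpd in HFSCs with edgeR (0% called), where 1100 genes (7.73%) had an unadjusted p below 0.05 and DESeq2 called 124, none of them among the 10.

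The treated levels differed between the mice. In treated progenitors 8 of 8 targets were higher in mouse 1, by a median of 0.52 on the log2 scale of CPM, as were 50.2% of all genes. In treated HFSCs 8 of 8 were higher in the library labelled mouse 2, by 0.30, as were 50.1% of all genes. If the numbers of this group were exchanged, the same mouse would be higher in both treated groups. In the untreated groups the mice were split 5 to 3 in progenitors and 3 to 5 in HFSCs. Leaving out any 1 of the 8 RNA-seq libraries, the median log2 difference of the targets stayed between 0.24 and 0.80 in progenitors with 8 of 8 higher, and between 0.22 and 0.44 in HFSCs with 7 or 8 higher, the 7 being without treated HFSCs of mouse 2. Without treated progenitors of mouse 1 the log2 difference in progenitors was 0.26 for Nqo1, 0.21 for Gclc, 0.20 for Gclm, 0.23 for Txnrd1 and 0.32 for Srxn1. The highest values with a library left out were 0.88, 0.76, 0.59, 0.58 and 0.84 in the same order, without treated progenitors of mouse 2 or, for Txnrd1, untreated progenitors of mouse 1. The list of differentiated keratinocyte markers (Krt1, Krt10, Ivl, Lor and Flg) also summed to more with N1-AcSpd, 137 to 214 CPM against 50.1 to 62.8 in progenitors and 49.2 to 69.8 against 27.6 to 27.7 in HFSCs, with Flg at or near 0 and 1 or 2 of the 5 markers below 1 CPM in each group. Its part in the result was not tested.

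**Figure D2:**
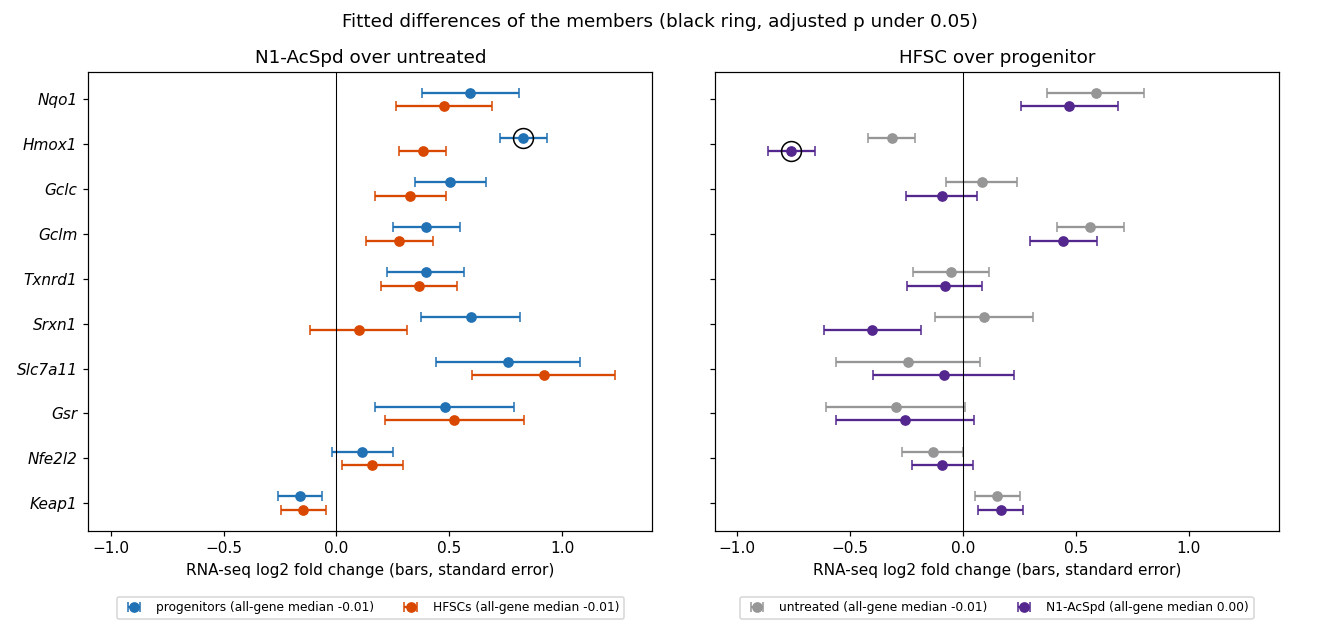
Fitted RNA-seq log2 fold changes of the 10 genes with their standard errors, for N1-AcSpd over untreated (left) and HFSC over progenitor (right). Rings mark adjusted p under 0.05, which Hmox1 alone reached in these 4 comparisons, once on each side; all 8 targets lie to the right of 0 on the left panel and on both sides of 0 on the right panel.

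HFSCs were compared with progenitors of the same treatment to ask whether the stem cell state carries another antioxidant setting. The targets did not move together here: in untreated cells 4 of 8 were higher and 4 lower in HFSCs (median log2 0.01, all genes -0.01 with 47.7% higher), and with N1-AcSpd 2 were higher and 6 lower (median -0.09, all genes 0.00 with 50.3% higher). Hmox1 lay on the progenitor side, and Nqo1, Gclm and Keap1 on the HFSC side. The untreated and treated comparisons use different libraries, but each shares a group with a treatment comparison above.

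Hmox1, with the values given above, fell by 0.76 on the log2 scale in HFSCs against progenitors under N1-AcSpd (SE 0.10, edgeR adjusted p = 0.0210), 1 of 63 genes called lower in that comparison (0.443% of those tested, 0.745% in both directions). In untreated cells the difference was -0.32 (SE 0.10, unadjusted p = 0.0149, adjusted p = 0.334), where 0.148% of genes were called and none of the 10. Both mice showed the lower level in HFSCs in both treatments. Without any single one of the 4 treated libraries the treated difference stayed between -0.80 and -0.71 but was no longer called, with adjusted p of 0.0651 to 0.165. Averaged over the treatments the difference was -0.54 (SE 0.07, adjusted p = 0.00756), in a comparison that called 1.8% of genes lower and 3.91% in all, and it stayed called without each of the 8 libraries in turn, with adjusted p from 0.0186 to 0.0413.

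Gclm was higher in HFSCs by a log2 difference of 0.56 untreated (SE 0.15, unadjusted p = 0.00448, adjusted p = 0.220) and of 0.44 with N1-AcSpd (SE 0.15, unadjusted p = 0.0153, adjusted p = 0.288). Averaged over both treatments it rose by 0.50 (SE 0.10, edgeR adjusted p = 0.0345), in a comparison that called 2.11% of genes higher. With the mouse as a block the adjusted p was 0.0616, and over 8 other settings it ran from 9.36e-04 to 0.0616. The call was lost without 6 of the 8 libraries, all but treated progenitors and treated HFSCs of mouse 1, with adjusted p up to 0.131 and log2 differences from 0.43 to 0.60. Of its 28-base words 3.74% also occur in transcripts of other genes.

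Nqo1 showed the same order, with a log2 difference of 0.59 untreated (SE 0.21, unadjusted p = 0.0238) and 0.47 treated (SE 0.21, unadjusted p = 0.0549), and 0.53 averaged (SE 0.15, adjusted p = 0.0979). The 2 HFSC libraries lay above the 2 progenitor libraries in untreated cells, whereas with N1-AcSpd the 60.03 CPM of progenitors of mouse 1 exceeded the 56.5 CPM of HFSCs of that mouse. Keap1 was higher in both HFSC libraries of each treatment, by 0.15 (SE 0.10) and 0.17 (SE 0.10), with an unadjusted p of 0.0487 for the average. Gclc, Txnrd1, Slc7a11 and Gsr differed by -0.30 to 0.08 with unadjusted p of at least 0.360 in both treatments. Srxn1 differed by 0.09 (SE 0.22) untreated and by -0.40 (SE 0.22, unadjusted p = 0.0966) with N1-AcSpd. Of the 10 genes 4 were separated upward in untreated HFSCs (Nqo1, Gclc, Gclm and Keap1, against 19.1% of all genes) and 2 downward (Hmox1 and Nfe2l2, against 21.6%), and under N1-AcSpd 2 upward (Gclm and Keap1, 19.6%) and 1 downward (Hmox1, 19.5%). At an unadjusted p below 0.05 stood 3 of the 10 genes in untreated cells (9.58% of all genes), 2 with N1-AcSpd (11.2%) and 4 in the average (18.1%).

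Whether N1-AcSpd acted differently in the 2 cell types was tested as an interaction. No gene passed adjustment with edgeR (0%), 118 (0.83%) had an unadjusted p below 0.05 and DESeq2 called 0. Among the 10 genes Hmox1 had the smallest p, with an increase that was smaller in HFSCs by 0.44 on the log2 scale (SE 0.15, unadjusted p = 0.0151, adjusted p = 1.00). Srxn1 followed with -0.50 (SE 0.31, unadjusted p = 0.141), and the remaining 8 had unadjusted p of at least 0.446.

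The targets formed groups by how they varied over the 8 RNA-seq libraries, which come from 2 mice and share treatment and cell type, so that correlations are given as description. Txnrd1, Slc7a11 and Gsr ran together, with a Pearson's r of 0.93 for each pair. Nqo1 and Gclm ran together (r = 0.98), and hardly with Hmox1 (0.07 and -0.09). Txnrd1 followed the mean of the other targets most closely (0.95), then Slc7a11 (0.92), Gclc (0.88), Srxn1 (0.85) and Gsr (0.79), with Nqo1 (0.61), Hmox1 (0.57) and Gclm (0.46) last. Nfe2l2 did not follow the mean of the targets (-0.00), and Keap1 ran against it weakly (-0.37). Keap1 also ran against Hmox1 (-0.86) and Nfe2l2 (-0.85).

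**Figure D3:**
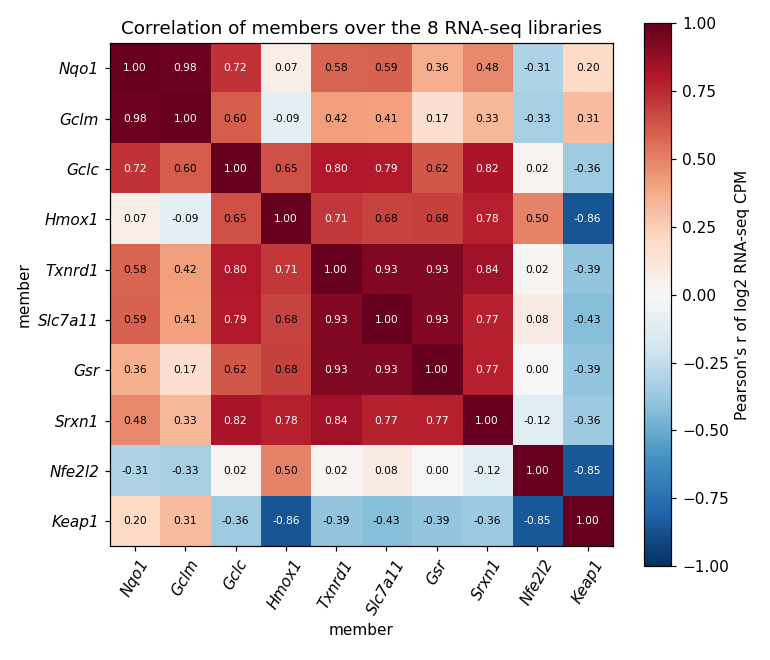
Pearson correlation of log2 RNA-seq CPM (with 0.5 added) between the 10 genes over 8 libraries, from -1 (blue) to 1 (red). Nqo1 with Gclm, and Txnrd1 with Slc7a11 and Gsr, form the darkest red blocks outside the diagonal, and Keap1 is blue with Hmox1 and Nfe2l2.

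Of 12246 other genes that averaged 10 counts or more, the 5 whose log2 CPM followed the mean of the 8 targets most closely were Cactin (r = 0.99), Mrps10 (0.98), Gk (0.97), Wnk2 (0.97) and Tcof1 (0.97), over 8 libraries. They were picked as the largest of 12246 correlations, over libraries that share mice, treatment and cell type. Shared regulation was not tested.

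Footprints tell which of these messages were being translated. Nfe2l2 had the most, 474 over the 8 libraries, and 14 to 166 in a library. Nqo1 had 168, Hmox1 94, Gclc 79, Txnrd1 72, Gclm 63, Slc7a11 51, Keap1 43 and Gsr 38. Srxn1 had 8 and was without a footprint in 4 libraries, and Gsr was without one in 2. These totals are not scaled by length. Per kilobase of coding sequence, the mean was 308 CPM for Nfe2l2, 237 for Nqo1, 133 for Hmox1 and 91.7 for Gclm. Txnrd1 (51.3), Gclc (51.0), Slc7a11 (40.5), Keap1 (30.0), Gsr (25.9) and Srxn1 (23.6) followed. No member was called in any of the 7 Ribo-seq comparisons with edgeR or DESeq2; the shares of all 8440 genes called by edgeR were 0.0118% and 0.0355% between the cell types untreated and treated, 0.0237% and 0% for N1-AcSpd in progenitors and HFSCs, 0.154% and 0.0829% for the averages and 0% for the interaction. At an unadjusted p below 0.05 stood Nqo1 between the treated cell types (3.45% of all genes), Nqo1 and Slc7a11 for N1-AcSpd in HFSCs (3.54%) and Slc7a11 for N1-AcSpd averaged (4.85%). At this depth most differences of the size seen in the messages were not detectable.

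Nqo1 footprints in HFSCs measured 141 and 160 CPM untreated (8 and 20 footprints) and 343 and 352 CPM with N1-AcSpd (49 and 21 footprints). In progenitors they measured 101 and 183 CPM untreated (4 and 45 footprints) and 212 and 66.3 CPM with N1-AcSpd (17 and 4 footprints). The treated HFSCs lay above the other 6 libraries, and the treated progenitors covered the whole untreated range. The log2 difference with N1-AcSpd was 1.18 in HFSCs (SE 0.55, unadjusted p = 0.0313, adjusted p = 1.00) and -0.12 in progenitors (SE 0.59, unadjusted p = 0.842), and the interaction had an unadjusted p of 0.107. Treated HFSCs exceeded treated progenitors by 1.26 (SE 0.56, unadjusted p = 0.0257, adjusted p = 1.00), and by 0.74 to 2.41 with single libraries left out, lowest without treated progenitors of mouse 2 and highest without those of mouse 1.

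Slc7a11 footprints in HFSCs measured 52.8 and 8.02 CPM untreated (3 and 1 footprints) and 119 and 101 CPM with N1-AcSpd (17 and 6 footprints). In progenitors they measured 25.4 and 52.8 CPM untreated (1 and 13 footprints) and 112 and 16.6 CPM with N1-AcSpd (9 and 1 footprints). The log2 difference was 2.15 in HFSCs (SE 1.00, unadjusted p = 0.0307, adjusted p = 1.00), ranging from 0.94 to 3.65 with single libraries left out, and 0.57 in progenitors (SE 0.93, unadjusted p = 0.541). In HFSCs the groups did not overlap, and in progenitors they did.

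Hmox1 footprints did not separate by treatment: 25.4 and 134 CPM in untreated progenitors, 237 and 66.3 CPM in treated ones, 158 and 48.1 CPM in untreated HFSCs and 84.1 and 168 CPM in treated ones, on 1 to 33 footprints. The log2 difference was 0.63 in progenitors (SE 0.68, unadjusted p = 0.354) and 0.35 in HFSCs (SE 0.72, unadjusted p = 0.627). Nfe2l2 footprints measured 355 and 674 CPM in untreated and 437 and 663 CPM in treated progenitors, and 581 and 545 CPM in untreated and 589 and 570 CPM in treated HFSCs. The HFSC libraries were close to each other, and the progenitor libraries of mouse 1 were the lowest of the 8. The differences of Nfe2l2 were 0.00 and 0.05 on the log2 scale for N1-AcSpd in progenitors and HFSCs, with unadjusted p of 0.997 and 0.911.
Keap1 footprints measured 127 and 44.7 CPM in untreated and 25.0 and 16.6 CPM in treated progenitors (5, 11, 2 and 1 footprints), and 35.2 and 64.1 CPM in untreated and 70.1 and 67.1 CPM in treated HFSCs (2, 8, 10 and 4 footprints). They were lower with N1-AcSpd in both mice in progenitors (log2 -1.66, SE 1.14, unadjusted p = 0.147) and higher in both mice in HFSCs (0.38, SE 0.94, unadjusted p = 0.688).

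Among the 8 targets, 6 had a higher fitted footprint level with N1-AcSpd in progenitors (median log2 0.40, all genes -0.05 with 47% higher) and 8 in HFSCs (median 1.06, all genes 0.01 with 50.9% higher). With single Ribo-seq libraries left out the number higher ranged from 3 to 6 in progenitors, where the median ran from -0.65 (without treated progenitors of mouse 1) to 0.82, and from 5 to 8 in HFSCs (5 without treated HFSCs of mouse 1). In HFSCs 5 of the 10 genes were separated upward (Nqo1, Gclc, Txnrd1, Slc7a11 and Keap1), against 16.6% of all genes. For Gclc, Txnrd1 and Keap1 the gap in HFSCs was smaller than a single footprint. The lowest treated and highest untreated values were 67.1 and 64.1 CPM for Gclc (4 and 8 footprints). They were 98.1 and 96.2 CPM for Txnrd1, and 67.1 and 64.1 CPM for Keap1. A single footprint equalled 16.8 CPM in treated HFSCs of mouse 2 and 7.01 CPM in those of mouse 1. In progenitors 1 gene was separated upward (Gclc), against 14%, and Keap1 was separated downward, against 15.3%.

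**Figure D4:**
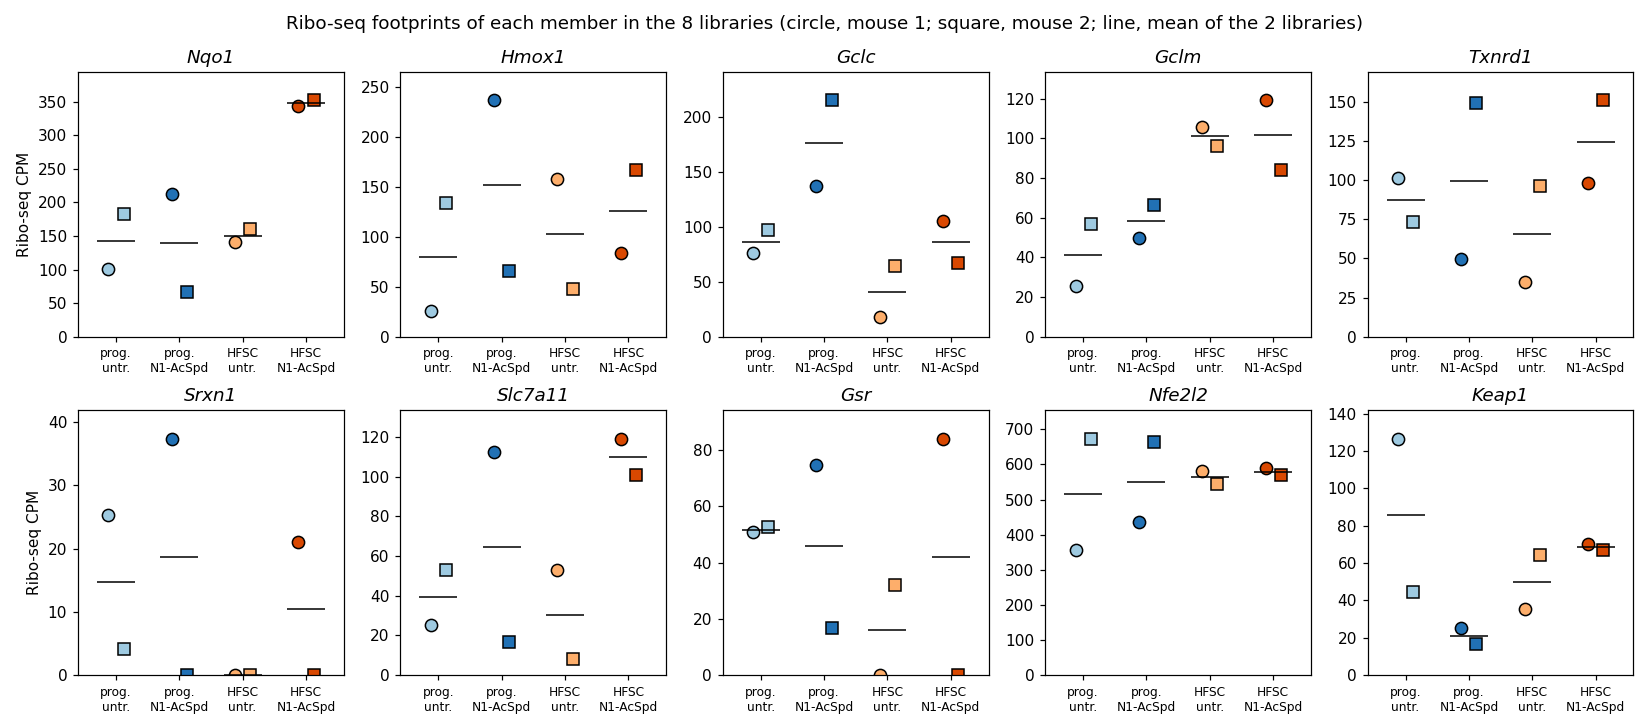
Ribo-seq level of the 10 genes in each library, in TMM-scaled CPM on linear axes from 0, with the symbols of the plot of RNA-seq levels. The Nqo1 values of treated HFSCs (343 and 352 CPM) lie above the other 6 libraries; Srxn1 is at 0 in 4 libraries and Gsr in 2.

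Footprints per message were compared as the mean Ribo-seq CPM over the mean RNA-seq CPM of the 8 lysates. Neither level was scaled by length, so ratios and ranks between genes also depend on the coding share of a transcript. The coding part was 822 of 1553 bases in Nqo1 and 822 of 5589 bases in Gclm. The ratio was 3.88 for Nqo1, above 92.6% of the 2261 genes that averaged 10 counts or more in each assay, whose median was 1.68. It was 2.17 for Hmox1 (67.9%) and 2.08 for Nfe2l2 (65.1%). The other 7 genes had fewer footprints than that minimum, and their ratios ran from 0.69 for Keap1 to 2.43 for Slc7a11. By lysate, Nqo1 ranged from 1.68 to 6.07 and Nfe2l2 from 1.42 to 2.42.

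Translational efficiency (TE), the ratio of footprints to messages, was tested in 1 model of both assays for each of 4 comparisons. None of the 10 genes was called, and none had an unadjusted p below 0.05. Over all genes edgeR called 0% in each comparison, with 459 (5.23%), 501 (6.25%), 512 (6%) and 579 (6.9%) genes at an unadjusted p below 0.05. DESeq2 called none of the 10. Srxn1 had enough footprints only in the comparisons of treated cells and of progenitors. The smallest p among the 10 genes belonged to Keap1 between treated cells, higher in HFSCs by 1.54 on the log2 scale (SE 0.78, unadjusted p = 0.0682). Nqo1 differed by -0.82 (SE 0.56, unadjusted p = 0.162) with N1-AcSpd in progenitors and by 0.69 (SE 0.43, unadjusted p = 0.127) in HFSCs.

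The wider pathway was described with 73 further genes in 8 lists, all present in the tables. With N1-AcSpd averaged over the cell types, 2 were called higher and 1 lower in RNA-seq. At an unadjusted p below 0.05, 16 were higher and 4 lower. Over all genes 1.64% were called in this comparison, 1.2% higher, and 7.63% were higher at an unadjusted p below 0.05. Of the 19 genes of glutathione use, Gsta4, a glutathione transferase for lipid aldehydes, and Glrx, a glutaredoxin, were the 2 called higher. Called or not, 14 of the 19 had a higher fitted level (median log2 0.07, all genes -0.01). Gsta4 measured 41.5 and 41.9 RNA-seq CPM in untreated and 127 and 83.3 CPM in treated progenitors, and 15.02 and 17.1 CPM in untreated and 30.9 and 53.0 CPM in treated HFSCs. The groups were far apart in each cell type, and HFSCs lay below progenitors of the same treatment. The 53.0 CPM of treated HFSCs of mouse 2 exceeded both untreated progenitor libraries. Gsta4 rose with N1-AcSpd by 1.36 (SE 0.19, edgeR adjusted p = 0.0131) and was lower in HFSCs than in progenitors by a called log2 difference of -1.35 (SE 0.19, adjusted p = 0.00774), both averaged. Its footprints were the only ones of the pathway genes to pass, with a rise of 2.13 (SE 0.50, adjusted p = 0.0416) on 0 to 32 footprints per library. Glrx rose by 0.93 (SE 0.14, adjusted p = 0.0207) and was lower in HFSCs by a called log2 difference of -0.82 (SE 0.14, adjusted p = 0.0176).

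Txnip, which encodes the thioredoxin-interacting protein that inhibits thioredoxin, was the 1 gene of the lists called lower with N1-AcSpd averaged over the cell types. It measured 29.0 and 29.2 RNA-seq CPM in untreated and 16.6 and 13.4 CPM in treated progenitors, and 49.6 and 66.5 CPM in untreated and 27.8 and 24.7 CPM in treated HFSCs. It fell by 1.05 on the log2 scale with N1-AcSpd (SE 0.12, edgeR adjusted p = 0.00863) and rose by 0.90 in HFSCs against progenitors (SE 0.12, adjusted p = 0.00682), both averaged. Txnip was thus lower in all 4 treated libraries than in the untreated ones of the same cell type. None of the other 12 genes of the thioredoxin and peroxiredoxin list was called with N1-AcSpd.

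The 6 genes of NADPH supply (G6pdx, Pgd, Me1, Tkt, Taldo1 and Idh1) were higher with N1-AcSpd in progenitors in 6 of 6 (median log2 0.34) and in HFSCs in 6 of 6 (median 0.41), with 5 at an unadjusted p below 0.05 in the average and none called. Idh1, the cytosolic isocitrate dehydrogenase, had a log2 difference of 0.39 in HFSCs (SE 0.09, unadjusted p = 0.00267, adjusted p = 0.302). All 6 were lower in HFSCs than in progenitors, none called. Over all genes, 47.2% were higher with N1-AcSpd in progenitors and 47.8% in HFSCs, and 7.63% were higher at an unadjusted p below 0.05 in the average. Between the cell types, 47.7% of all genes were higher in HFSCs untreated and 50.3% with N1-AcSpd. The 11 regulators and partners of NRF2, among them Cul3, Bach1 and the small MAF genes, had a median of -0.09 with N1-AcSpd averaged, with 4 higher, 7 lower and none called. Of the 7 haem and iron genes 4 were higher and none was called, and of the 10 quinone, aldehyde and xenobiotic genes 6 were higher and none was called. Of the 4 genes that remove superoxide and hydrogen peroxide 2 were higher, also without a call.

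Polyamine acetylation and oxidation, a known source of hydrogen peroxide, was covered by 3 genes. Sat1, the spermidine/spermine acetyltransferase, measured 209 and 202 RNA-seq CPM in untreated and 209 and 470 CPM in treated progenitors, and 173 and 144 CPM in untreated and 307 and 217 CPM in treated HFSCs. Paox, the oxidase of acetylated polyamines, stayed between 19.3 and 28.4 CPM in all 8 libraries, and Smox, the spermine oxidase, between 31.2 and 65.1 CPM. All 3 had a positive fitted difference with N1-AcSpd averaged (0.09 to 0.72), 1 at an unadjusted p below 0.05, and none was called.

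Between the cell types, averaged over treatments, 8 of the 73 genes were called, 6 higher and 2 lower in HFSCs, against 3.91% of all genes (2.11% higher and 1.8% lower). Besides Txnip, Gsta4 and Glrx these were the iron exporter gene Slc40a1 (log2 1.72, SE 0.31, edgeR adjusted p = 0.0221), the glutathione peroxidase gene Gpx2 (0.94, SE 0.19, adjusted p = 0.0303), the glutathione transferase genes Gstm1 (0.90, SE 0.16, adjusted p = 0.0208) and Gstm5 (0.58, SE 0.12, adjusted p = 0.0349), and Sesn1, a sestrin (0.65, SE 0.12, adjusted p = 0.0273), all higher in HFSCs. In the interaction the smallest p-values among the 73 genes were those of Gpx3 (-1.97, SE 0.83, unadjusted p = 0.0425), Mgst1 (0.40, SE 0.28, unadjusted p = 0.185) and Txnrd2 (0.29, SE 0.20, unadjusted p = 0.191), none called.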

How the data were processed

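RNA-seq and Ribo-seq were measured in 16 libraries of sorted mouse organoid cells. Per the labels and methods, reads were trimmed, cleared of ribosomal and transfer RNA with Bowtie 1.2.3, mapped to GRCm38.p5 by STAR 2.7.3a and summed by featureCounts (tools and versions from the submitters' processing notes), and the authors deposited unscaled counts per transcript; strand use is not given in the sources used here. Gene names came from a deposited table of the authors' own comparisons (log2 fold changes, p-values and scaled values of differential translation), which were not used otherwise.

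Each of 22612 genes was represented by 1 of its transcripts (64026 in all), chosen by the highest footprint total. Coordinates and overlaps are from GENCODE M21. CPM are TMM-scaled. Genes averaging 1 count or more were tested with edgeR 4.0.16 (R 4.3.3; quasi-likelihood model over all 4 groups, per assay, Benjamini-Hochberg adjustment, calls at adjusted p under 0.05), and TE as the interaction of assay and group, with scripts tested on simulated counts. The SE is the log2 difference over the root of F. Alternatives were DESeq2 1.42.0, RLE factors, 2 other count filters, the transcript with the most RNA-seq counts, unadjusted p, each library left out and the mouse as a block. For the 10 genes that transcript was the one already kept, so this setting changed the counts of other genes only. The replicate number names the donor mouse, so it pairs the samples; the correlations of the mouse differences are given with the depth. The 10 genes, the 73 pathway genes, the 35 markers and the rule for naming further genes (called in any comparison, or among the 3 smallest p in an RNA-seq comparison) were chosen with earlier results of these data known.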

Additional observations from a re-analysis of the deposited data

Results flagged for a closer look

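Keap1 footprints moved in opposite directions in the 2 cell types: with N1-AcSpd they were lower in both mice in progenitors and higher in both mice in HFSCs, and the mean log2 ratios of the cell types differed by 2.42. This rests on 1 to 11 footprints per library. In HFSCs of mouse 2 the level was 64.1 CPM untreated and 67.1 CPM with N1-AcSpd (8 and 4 footprints). That gap is smaller than a single footprint, which equalled 16.8 CPM in the treated library. The fitted interaction was 2.03 (SE 1.48, unadjusted p = 0.170, edgeR adjusted p = 1.00), so the difference did not pass the test. Keap1 messages were lower with N1-AcSpd in both mice of both cell types.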

How the results depend on the processing

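Values here are the number of the 10 genes called. With single libraries left out the median log2 difference of the targets changed sign between the cell types (RNA-seq, from -0.11 to 0.10 untreated and from -0.37 to 0.14 treated) and for footprints with N1-AcSpd in progenitors. For N1-AcSpd in progenitors (1 gene) the number was 0 with the mouse as a replicate block and 0 with counts summed over transcripts, an alternative chosen after seeing the data. For N1-AcSpd averaged (1 gene) it was 4 with DESeq2 and 2 without a filter. For HFSC over progenitor it was 1 with DESeq2 in untreated cells (0 genes) and 1 with the mouse as a replicate block in the average (2 genes). The block changed no other call among the 10 genes. Exchanging the mouse numbers of treated HFSCs in the block (crossed replicate block, chosen after seeing the data) gave 1 and 4 genes between the cell types untreated and averaged, and 4, 2 and 7 for N1-AcSpd in progenitors, in HFSCs and averaged. At an unadjusted p under 0.05 the RNA-seq numbers were 3, 2 and 4 between the cell types (untreated, treated, averaged), 7, 2 and 7 for N1-AcSpd (progenitors, HFSCs, averaged) and 1 for the interaction, and the Ribo-seq numbers were 1 between treated cells, 2 for N1-AcSpd in HFSCs and 1 averaged. With single libraries left out, where the lone library of a group is taken to vary like the others, they ranged from 0 to 1 between treated cells and for N1-AcSpd in progenitors, from 1 to 3 between the cell types averaged and from 1 to 2 for N1-AcSpd averaged.

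Counts over all genes moved more. For N1-AcSpd in progenitors 34 genes were called, against 179 with DESeq2, 111 without a filter, 20 at a mean of at least 10 counts, 7 with the mouse as a block, 441 with the crossed block and 1 with summed counts. For N1-AcSpd in HFSCs 0 were called, against 124, 43, 0, 0, 269 and 0, and averaged 233, against 581, 413, 235, 135, 1260 and 147. Between the cell types 21 were called untreated, against 268, 167, 20, 3, 752 and 15, 106 treated, against 380, 262, 97, 44, 903 and 70, and 556 averaged, against 966, 869, 548, 444, 1950 and 478. With single libraries left out the counts ran from 0 to 21 and 0 to 4 for N1-AcSpd in progenitors and HFSCs, 42 to 137 averaged, and 1 to 21, 2 to 89 and 188 to 457 between the cell types (untreated, treated, averaged) (both averages lowest without untreated progenitors of mouse 1). Footprint depth limits the Ribo-seq and TE results.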
